A study of Mus musculus with 2 samples.

Results

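The nuclear genes of respiratory complex I were followed in long-read RNA libraries of the neonatal mouse adrenal gland. Members were all genes whose annotated name begins with Nduf and whose annotated type is protein coding. The annotation holds 51 genes with such names, of which 5 are not protein coding, which left 46 members among the 18053 annotated genes with at least 1 read. All 46 members had reads in both libraries. By name, 8 are assembly factors (Ndufaf genes) and 38 are counted as subunits. The Ndufb1 subunit carries the name Ndufb1-ps in this annotation, where it is typed as a non-coding RNA, so the rule left it out; it had 199 and 247 reads in the 2 libraries.

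Total RNA came from adrenal glands of male B6CASTF1/J mice aged 4 days, an F1 hybrid strain, with no treatment or genotype contrast in the labels. The 2 libraries form 1 group, biological replicates 1 and 2, so the comparisons are among genes, among transcript forms and between the libraries. The labels do not settle whether the libraries come from 1 animal or from 2: the tissue entries name different males and the library entries name the same one, with 1 donor identifier. Replicate 1 held 688260 reads on mouse genes and replicate 2 held 810645.

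Complex I is the NADH dehydrogenase of the inner mitochondrial membrane, where it passes electrons from NADH to ubiquinone and pumps protons. Its matrix arm holds the NADH-oxidising N module and the quinone-reducing Q module, and its membrane arm pumps the protons. Core subunits carry out catalysis, accessory subunits surround them, and assembly factors help to build the enzyme without remaining in it. In the adrenal cortex, mitochondria also house steps of steroid synthesis. The core subunits of the membrane arm are encoded by the mitochondrial genome, and the nuclear genome encodes all others.

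Both libraries carried the markers of the labelled tissue. All 8 adrenal cortex markers and all 6 chromaffin markers were detected. The cortex sum was 46618 CPM (reads scaled to 1000000 mouse reads) in replicate 1 and 31598 in replicate 2, where 1 of 8, Cyp11b2, was called lower. Chromaffin markers summed to 12514 and 9306 CPM, with 0 of 6 called. Of 3 tested endothelial markers, 1, Pecam1, was called lower in replicate 2. Replicate 2 stood apart in liver markers: 10 of 10 were called higher there, with sums of 443 and 17191 CPM. In replicate 1 the liver markers Plg and Cyp2e1 were at 0 reads. Red blood cell markers were also higher in replicate 2, at 3670 and 7480 CPM, with 3 of 5 called. Skeletal muscle markers summed to 1389 and 2424 CPM, with 1 of 5 tested genes called higher in replicate 2, and fat markers to 1791 and 2335 CPM, with 0 of 5 tested genes called. The part of these markers in the differences between the libraries described further on was not tested. In bulk tissue, fewer cells of a type and less RNA per cell cannot be told apart.

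The subunit genes were far more abundant than the assembly factor genes. On the CPM scale, 1 read equals 1.45 in replicate 1 and 1.23 in replicate 2. Together the 38 subunit genes came to 12992 and 15419 CPM, a mean of 14205 ± 1716 (SD, n = 2). Without Ndufa4 and Ndufa4l2, the 36 core and accessory subunits came to 11616 and 13658 CPM, a mean of 12637 ± 1444 (SD, n = 2). The 8 assembly factors summed to 355 and 419 CPM, a mean of 387 ± 45.9 (SD, n = 2). The median subunit stood at 300.03 and 369 CPM and the median assembly factor at 35.6 and 38.2 CPM, which gave ratios of medians of 8.43 and 9.65. A long read was counted once whatever its length, so CPM was not divided by length. The median leading transcript was 780 bases in the subunits and 1322 bases in the assembly factors. Any part of length in the ratio of the classes was not tested. Per kb of the longest annotated transcript, the mean ratio was 12.8 instead of 9.04.

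**Figure D1:**
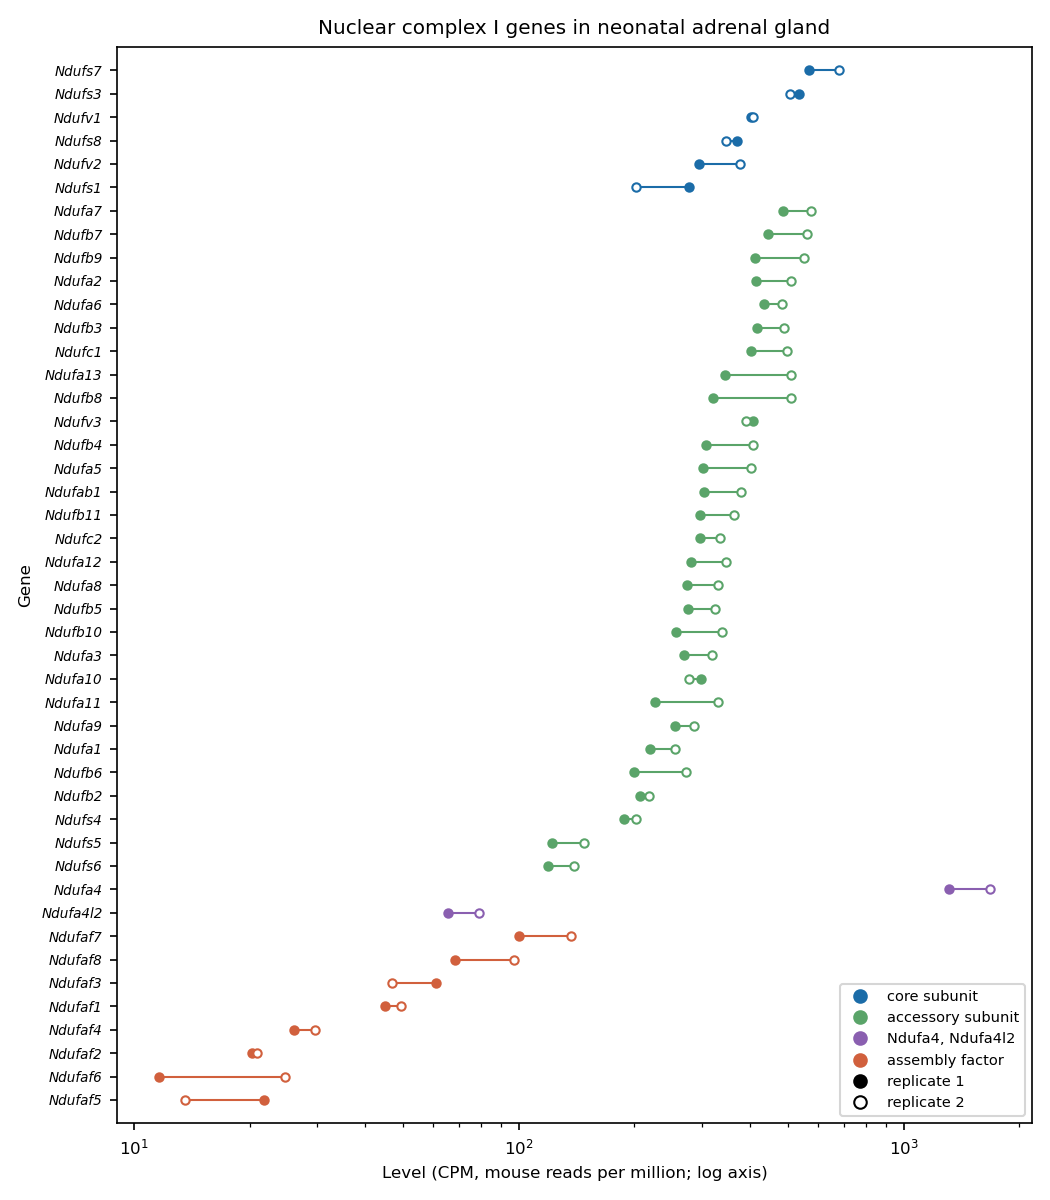
Level of 45 of the 46 genes in CPM on a log axis, filled circles for replicate 1 and open circles for replicate 2, joined by a line and coloured by class. The 8 assembly factors lie between 11.6 and 137 CPM, and every core or accessory subunit shown lies at 119 CPM or above.

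Counting all reads, the range of the Ndufaf assembly factors did not overlap that of the 36 core and accessory subunits in either library. The highest assembly factor, Ndufaf7, reached 100 CPM in replicate 1 and 137 CPM in replicate 2, and the lowest of these subunits, Ndufs6, stood at 119 and 139 CPM. Counting only complete reads, meaning known and new splice models, this no longer held for 1 subunit, Ndufa13, which had 7.26 and 13.6 CPM. The other subunits then started at 110 and 131 CPM, above the highest factor at 65.4 and 78.9 CPM. On the per-kb scale the ranges met: 7 of 8 assembly factors in replicate 1 and 6 of 8 in replicate 2 lay under the lowest subunit, which on that scale was Ndufb2. On all-read CPM, the core and accessory subunits spanned 4.78-fold from lowest to highest in replicate 1 and 4.87-fold in replicate 2. Of the 36, 32 and 33 lay between 200 and 600 CPM. The spread was wider per kb, from 47.2 (Ndufb2) to 761 (Ndufa7) in replicate 1. It was also wider on complete reads, from 7.26 CPM (Ndufa13) to 527 CPM (Ndufs3) in replicate 1. These were differences among genes within each library and carry no test, since the classes were set by name.

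The 7 core subunits encoded in the nucleus all stood above 200 CPM. Ndufs7, an iron-sulfur subunit at the quinone site (chr10:80249121-80256794, plus strand), was the highest core gene on all reads, with 570 and 678 CPM from 392 and 550 reads. Ndufs3, a core subunit of the Q module (chr2:90894634-90904827, minus strand), had 536 and 506 CPM. Ndufv1, which binds flavin and oxidises NADH (chr19:4007384-4012806, minus strand), had 402 and 406 CPM. On all reads the values of these 3 genes did not overlap from one gene to the next. On complete reads the order changed: Ndufs3 had 527 and 486 CPM, Ndufv1 386 and 389 CPM, and Ndufs7 337 and 331 CPM.

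Ndufs8, an iron-sulfur subunit of the Q module (chr19:3908863-3912774, minus strand), had 369 and 347 CPM. Ndufv2, an iron-sulfur subunit of the N module (chr17:66078638-66101559, minus strand), had 293 and 375 CPM. The values of Ndufs8 and Ndufv2 interleaved, so their order is not resolved. Ndufs1, the iron-sulfur subunit that carries electrons along the N module (chr1:63143596-63176833, minus strand), was the lowest, with 278 CPM in replicate 1 and 202 CPM in replicate 2. It was also the longest of the core transcripts, with a leading annotated model of 2661 bases.

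Ndufa4 stood above every other member. This protein was first assigned to complex I and is now known as a subunit of cytochrome c oxidase, complex IV. It had 902 and 1363 reads, or 1311 and 1681 CPM, and alone took 9.82% and 10.6% of all member reads. Its paralog Ndufa4l2, known as a hypoxia-induced gene, had 45 and 64 reads, or 65.4 and 78.9 CPM, which lies within the range of the assembly factors. Ndufa4 also ranked first among the 46 members per kb of longest annotated transcript. Of its reads, 54.99% in replicate 1 and 54.81% in replicate 2 were incomplete and are described further on.

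The other members with the highest mean CPM were accessory subunits. Ndufa7 of the N module had 487 and 575 CPM. Ndufb7 and Ndufb9, both of the distal membrane arm, had 445 and 560 CPM and 411 and 551 CPM. Ndufa2 of the N module had 414 and 511 CPM and Ndufa6 of the Q module 433 and 484 CPM. Ndufb3 of the distal membrane arm had 417 and 490 CPM and Ndufc1 of the proximal membrane arm 402 and 497 CPM. Across the libraries the ranges of these 7 genes overlapped, except that both values of Ndufa7 lay above both of Ndufa6. At the low end of the structural subunits, Ndufs6 had 82 and 113 reads and Ndufs5 had 84 and 120 reads; both were chosen for mention after their values were seen.

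The assembly factors were thinly covered. Ndufaf7, a methyltransferase, had 69 and 111 reads, or 100 and 137 CPM. Ndufaf8, the partner of Ndufaf5, had 47 and 79 reads, or 68.3 and 97.5 CPM. Ndufaf3, which acts with Ndufaf4 on the Q module, had 42 and 38 reads, or 61.0 and 46.9 CPM. Ndufaf1, a factor for the membrane arm, had 31 and 40 reads, or 45.0 and 49.3 CPM. On all reads the values of Ndufaf7 did not overlap those of the other 7 factors, while those of Ndufaf1 and Ndufaf3 interleaved. On complete reads Ndufaf7, at 58.1 and 61.7 CPM, lay under Ndufaf8, at 65.4 and 78.9 CPM.

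The remaining 4 factors had under 30 CPM in each library. Ndufaf4 had 18 and 24 reads, or 26.2 and 29.6 CPM. Ndufaf2, a paralog of the subunit Ndufa12, had 14 and 17 reads, or 20.34 and 20.97 CPM. Ndufaf6 had 8 and 20 reads, or 11.6 and 24.7 CPM, and Ndufaf5, which hydroxylates Ndufs7, had 15 and 11 reads, or 21.8 and 13.6 CPM. At this depth the order of Ndufaf2, Ndufaf5 and Ndufaf6 could not be resolved.

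Other assembly factors that do not carry the Nduf name had a similar median level, with higher values at the top. From a list of 13 such genes, 12 were in the annotation under the listed name and all 12 had reads, with a median of 48.7 CPM in replicate 1 and 38.9 CPM in replicate 2. Tmem70, which helps to assemble complex I and ATP synthase, was the highest with 286 and 222 CPM, and Aifm1 had 273 and 185 CPM. Both lay above every Ndufaf gene and within the range of the core and accessory subunits in each library. The separation from those subunits thus holds for the Ndufaf genes and not for all assembly factors. Timmdc1, a membrane-arm factor, was the lowest with 7 and 6 reads.

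The subunits encoded by the mitochondrial genome were nearly absent from these libraries. mt-Nd1 had 30 and 64 reads, mt-Nd2 29 and 35, mt-Nd4 8 and 18, and mt-Nd5 12 and 15. mt-Nd3 had 2 reads in each library, mt-Nd4l had 0 and 1, and mt-Nd6 had 0 in both; 3 reads, the most that a count of 0 allows, equal 4.36 and 3.70 CPM. The 7 genes summed to 118 and 167 CPM, while all reads on the mitochondrial genome came to 392 and 795, or 0.0570% and 0.0981% of mouse reads. How the library preparation and the filters on alignments treat mitochondrial transcripts is not given in the sources used here, so these values are no measure of the ratio of mitochondrial to nuclear subunits in the tissue.

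Between the libraries, the complex I genes as a group lay higher in replicate 2, without any member passing the call. The reads of each gene were set against all other mouse reads by Fisher's exact test, two-sided, with Benjamini-Hochberg adjustment over 8276 genes. Genes were called where that p fell under 0.05 and CPM differed by 1 or more on the log2 scale. Of the 46 members, 0 were called, against 3.23% of all tested genes. By the adjusted p alone, 9 of 46 members (19.6%) passed, against 7.93% of all tested genes. Of those 9, 8 were higher in replicate 2 (17.4% of members), against 3.83% of all tested genes. The count by adjusted p varied with the setting, from 7 of 46 with no read minimum to 19 of 46 with DESeq2 size factors, where 3.24% and 7.3% of all tested genes passed. At an unadjusted p under 0.05 there were 21 members, but the share of all tested genes at that threshold is not given. This count alone therefore shows nothing particular to the members. These tests compare 2 libraries and not conditions.

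The median log2 ratio of replicate 2 over replicate 1 was 0.25 for the 46 members and -0.10 for all tested genes. Of the members 39 lay above 0 (84.8%), as did 41.2% of all tested genes. By class, the median was 0.28 for the 29 accessory subunits, of which 27 were above 0, and 0.01 for the 7 core subunits, of which 4 were above 0. For the 8 assembly factors the median was 0.15, with 6 above 0. By place in the enzyme, the median was 0.36 in the distal membrane arm (10 of 10 above 0), 0.27 in the proximal membrane arm (8 of 9), 0.23 in the N module (7 of 9) and 0.16 in the Q module (5 of 7).

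Transcript length moved with this ratio over all genes. For tested genes whose leading annotated transcript was under 1000 bases, the median log2 ratio was 0.20 over 914 genes, and for longer ones it was -0.15 over 7153 genes. The leading transcripts of the members had a median of 875 bases. The 26 members under 1000 bases had a median log2 ratio of 0.27, and the 19 members of at least 1000 bases had 0.13, with 14 of 19 above 0. Among the 7 core subunits the median length was 1623 bases, and among the 29 accessory subunits 718 bases. The part of transcript length in the members' difference was not tested further.

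**Figure D2:**
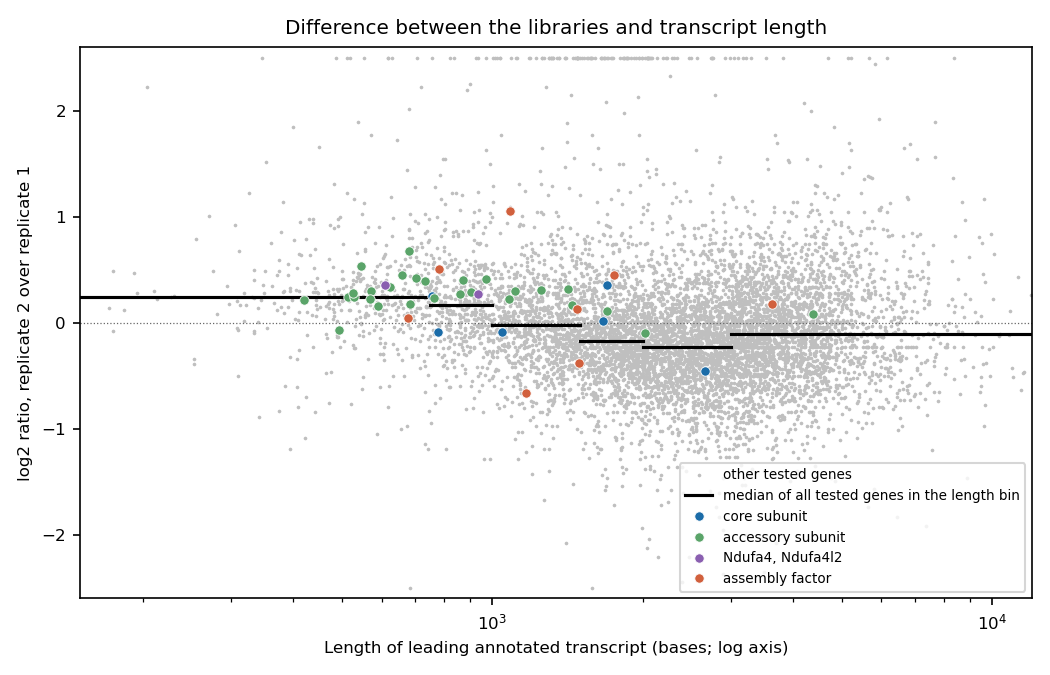
Log2 ratio of CPM, replicate 2 over replicate 1, against the length of the leading annotated transcript on a log axis, for all tested genes (grey), their median per length bin (black lines) and the members (coloured by class); points beyond 2.5 in size are drawn at the edge, and Ndufa13 is missing since no annotated model of it had reads, and 1 other member is not drawn. Most members lie above 0, where genes under 1000 bases have a median of 0.20 and longer genes one of -0.15.

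The members with the largest ratios were accessory subunits and thinly covered factors. Ndufb8, a subunit of the distal membrane arm, had 220 and 413 reads, or 320 and 509 CPM, a log2 ratio of 0.67 with a counting SE of 0.12 and a Fisher adjusted p of 7.3e-07. Ndufa13, also known as GRIM-19 and placed in the proximal membrane arm, had 237 and 414 reads, or 344 and 511 CPM, with a log2 ratio of 0.57. Ndufa11 of the same arm had 227 and 329 CPM, with a log2 ratio of 0.54. Each of these 3 genes passed the adjusted p and none reached the log2 ratio of 1. Ndufaf6 had the largest ratio of all, 1.05, from 8 and 20 reads, with a Fisher adjusted p of 0.35, and Ndufaf8 had 0.51 with 0.29.

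The other members past the adjusted p and higher in replicate 2 were Ndufa4, Ndufb9, Ndufb4, Ndufa5 and Ndufb7, with log2 ratios from 0.33 to 0.42; Ndufb4 and Ndufa5 were chosen for mention after their values were seen. Ndufs1 was the only member past it in the opposite direction: it had 191 and 164 reads, a log2 ratio of -0.46 with a counting SE of 0.15 and a Fisher adjusted p of 0.044. Further members with lower values in replicate 2 were Ndufaf5 with a log2 ratio of -0.66, Ndufaf3 with -0.38, Ndufa10 with -0.10 and Ndufs8 with -0.09, none of which passed. Ndufaf5 and Ndufaf3 rest on 26 and 80 reads over both libraries.

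Other respiratory complexes were read from fixed lists for comparison. The median log2 ratio was 0.05 for 4 genes of complex II, 0.38 for 9 genes of complex III, 0.33 for 10 genes of complex IV and 0.14 for 15 genes of complex V. None of these genes was called, and by adjusted p alone 0, 5, 9 and 5 of them passed. The 11 tested assembly factors without the Nduf name had a median of -0.29, with 3 above 0. Of these, Aifm1 passed the adjusted p, with a log2 ratio of -0.56. The median leading length was 1974 bases over the 12 such factors with reads. Nothing in the higher ratios was shown to be particular to complex I.

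Most reads of the members matched annotated transcripts over their whole intron chain. The transcript models carry the classes of the TALON program: known, new combinations of known splice sites, new splice sites, incomplete matches that lack part of a known chain, and genomic. Of member reads, 81.7% in replicate 1 (95% Wilson interval 80.9 to 82.5) and 79.7% in replicate 2 (79.0 to 80.4) were in known models, against 77.0% and 73.9% over all protein-coding genes. New splice models held 3.03% and 2.79% of member reads, against 8.44% and 8.38%. Incomplete matches held 14.7% and 17.0% of member reads, against 10.1% and 11.3% over all protein-coding genes and 7.71% and 7.67% over those with a leading transcript under 1000 bases. In that short-gene set known models held 86.6% and 86.4% of reads, above the members, and new splice models 4.15% and 3.87%. The members' known share was thus above that of protein-coding genes as a whole but below that of short genes.

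Those incomplete reads came mostly from 5 genes. Partial reads, meaning incomplete matches and genomic models together, made up over 30% of reads in both libraries for 5 of 42 members with at least 20 reads in each library (11.9%), against 10.3% of protein-coding genes with that depth. These 5 genes, Ndufa13, Ndufb3, Ndufa4, Ndufs7 and Ndufaf7, held 80.1% of all partial reads of the members in replicate 1 and 78.9% in replicate 2. In the other members together the partial share was 3.82% and 4.74%. The 5 genes were picked by their partial share, and the same split was not made for all genes. Their share of the assessed members, 11.9%, lies near the 10.3% of protein-coding genes, so the count shows nothing particular to the members.

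**Figure D3:**
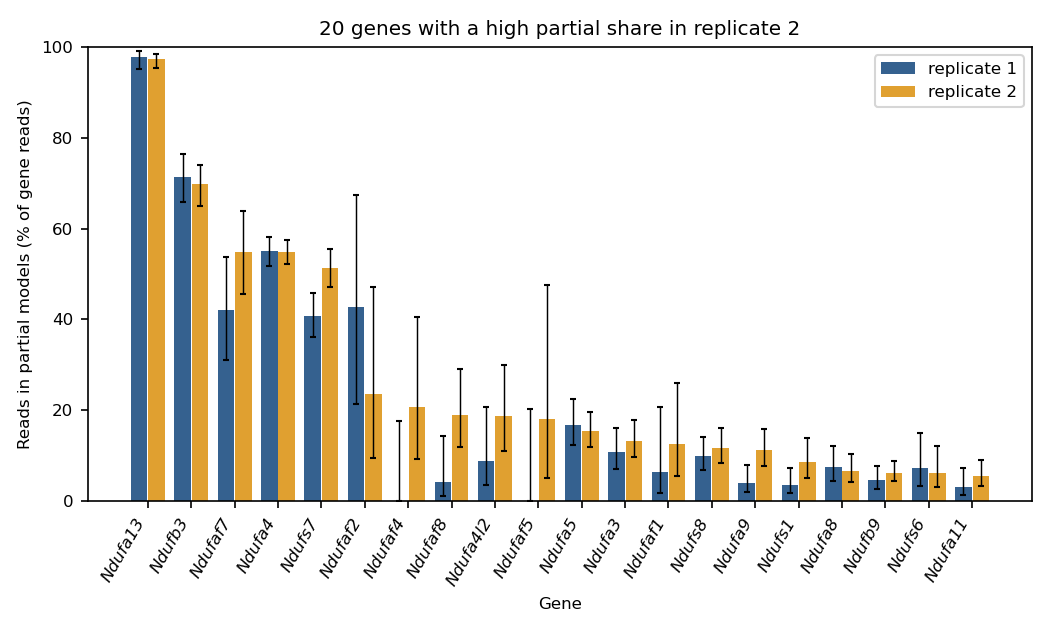
Reads in partial models as a percent of the reads of each gene, with 95% Wilson intervals, for the 20 plotted members with the highest share in replicate 2 (blue, replicate 1; yellow, replicate 2). Ndufa13 is near 98% in both libraries, and Ndufb3, Ndufa4, Ndufs7 and Ndufaf7 lie between 40.8% and 71.4%.

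In each of the first 4 of these genes, 1 partial model with the same ends recurred in both libraries. For Ndufa4 (chr6:11900292-11907497, minus strand), a model of the last 2 of 4 exons had 485 and 735 reads, 53.8% and 53.9% of the reads of the gene, while the full-length model Ndufa4-205 had 401 and 611. For Ndufb3 (chr1:58586384-58595964, plus strand), the last exon alone had 205 and 277 reads, 71.4% and 69.8%, and the full-length model Ndufb3-201 had 79 and 118. For Ndufs7, a model of the last 2 of 8 exons had 146 and 267 reads, 37.2% (32.6 to 42.1) and 48.5% (44.4 to 52.7), intervals that do not overlap.

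The bases around the start of each of these models are shown because they mark what the partial models lack. Capitals mark the first 40 bases held by the partial model, and lower case the 20 bases of the exon before it, all of them coding; sequences are from GENCODE mouse release 21 transcripts on mm10, 5′ to 3′ in the direction of the gene.
Ndufb3: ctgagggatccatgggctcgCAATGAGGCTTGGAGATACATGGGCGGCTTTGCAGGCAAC
Ndufa4: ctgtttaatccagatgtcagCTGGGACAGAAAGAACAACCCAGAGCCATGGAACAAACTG
Ndufs7: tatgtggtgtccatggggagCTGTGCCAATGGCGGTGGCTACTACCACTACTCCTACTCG

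These partial models hold only the end of the coding region: 154 of 312 coding bases in Ndufb3, 115 of 246 in Ndufa4 and 184 of 672 in Ndufs7. Ndufa13 (chr8:69894180-69902558, minus strand) differed in this respect. Its 1 recurring model, with 227 and 390 reads or 95.8% and 94.2% of the gene, lacks only the annotated first exon of 5, which is non-coding, and holds all 432 coding bases. No read of Ndufa13 matched its annotated transcript in full. Leaving out partial models would therefore take the mean level of Ndufa13 down 41.0-fold, of Ndufb3 3.39-fold, of Ndufa4 2.22-fold, of Ndufaf7 1.98-fold and of Ndufs7 1.87-fold; Ndufa4 still ranked first of the 46 on complete reads, while Ndufs7 moved from rank 2 to 15, Ndufb3 from 9 to 34 and Ndufa13 from 11 to 46.

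**Figure D4:**
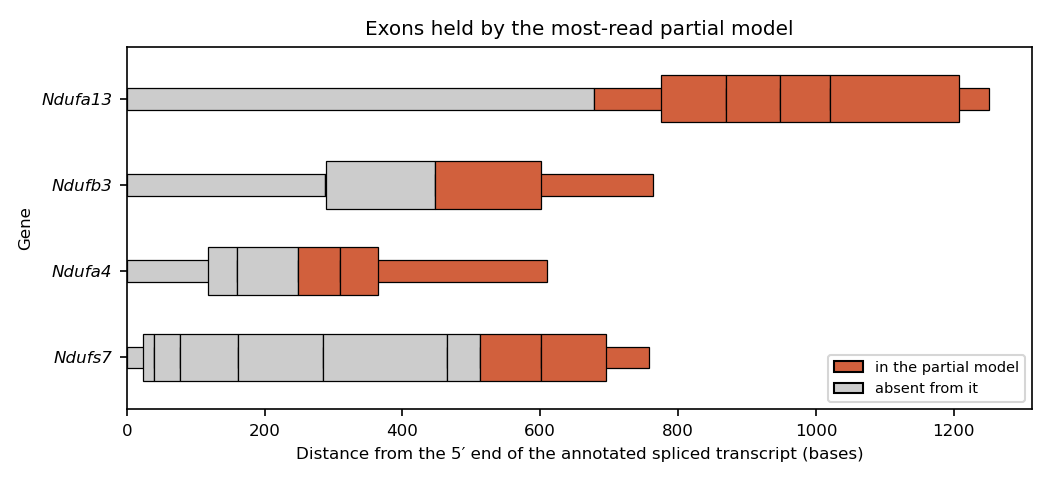
Annotated spliced transcripts of 4 genes drawn to scale in bases from their 5′ end, with coding parts as tall boxes and exon borders as lines; orange marks the exons in the most-read partial model. In Ndufa13 all coding boxes are orange. Elsewhere only the end of the coding region is orange, as the last exon of Ndufb3 and the last 2 exons of Ndufa4 and Ndufs7.

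Whether these are true 5′ ends could not be read from the models. In replicate 1, 96 of 108 incomplete models of members, with 98.3% of their reads, began exactly at an annotated exon border, and in replicate 2 this held for 115 of 127 models with 98.0% of reads. Ndufaf7 was a case of its own: the reads of its last exon were classed as genomic in replicate 1 (27 reads) and as an incomplete match in replicate 2 (56 reads), so its difference between the libraries depends on which classes are counted.

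One form dominated in most members. Complete reads were sufficient in 36 members (at least 50 in each library), none of them an assembly factor. The leading form held a median of 95.9% of complete reads in these members and 91.7% over all 2440 genes with that depth. It held at least 90% in 26 of the 36 members (72.2%) and in 55.5% of all these genes. Only Ndufs1 had a leading form under 60%, that is 1 of 36 (2.78%), against 12.8% of all genes with that depth. Usage of the leading form was compared between the libraries by Fisher's exact test. At adjusted p under 0.05 and at least 10 points, 0 of 36 members were called, against 0.41% of all genes. By the adjusted p alone 0 members passed, and 1, Ndufab1, had an unadjusted p under 0.05. The shares of all genes at these last thresholds are not given, so these counts show nothing particular to the members.

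Ndufs1 was spread over 4 forms that differ before the start codon. The first exon ends at either of 2 donor sites 158 bases apart, and a 104-base exon (chr1:63172154-63172257) is included or skipped before the exon that holds the start codon. The earlier donor without this exon, Ndufs1-201, had 61 and 50 reads, and the later donor without it, Ndufs1-203, had 43 and 29. The earlier donor with the exon had 32 and 31 reads, and the later donor with it had 23 and 20; both are new combinations of known sites and were the most-read new models among all members. Counted over all spliced reads of the gene, the 104-base exon was included in 37.2% (30.6 to 44.3) of 188 reads in replicate 1 and 42.5% (34.9 to 50.4) of 153 reads in replicate 2. The later donor was used in 41.1% (34.2 to 48.3) and 38.8% (31.4 to 46.7). In both cases the intervals overlapped, and the annotated coding region of Ndufs1-201 and Ndufs1-203 is the same, 727 codons.

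Ndufv3, an accessory subunit of the N module, showed the largest change to a coding region; it and the genes Ndufb2 and Ndufs5 were chosen for mention after their values were seen. Short and long protein forms of this subunit are known. A coding exon of 1092 bases, a multiple of 3 (chr17:31527310-31528401, plus strand), is kept in Ndufv3-201 and skipped in Ndufv3-202, whose annotated coding regions span 468 and 104 codons. The long exon was included in 27.8% (22.8 to 33.4) of 270 reads in replicate 1 and 25.3% (20.8 to 30.5) of 304 reads in replicate 2. By read count, the short form was thus the main one in both libraries. The long exon adds 1092 bases, and any part of transcript length in these shares was not tested. The 3 junctions that tell the forms apart are printed with the bases of the long exon in capitals.
Ndufv3 long form, into the long exon: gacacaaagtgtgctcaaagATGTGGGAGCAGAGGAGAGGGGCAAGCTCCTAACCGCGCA
Ndufv3 long form, out of the long exon: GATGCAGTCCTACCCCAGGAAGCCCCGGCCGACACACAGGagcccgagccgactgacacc
Ndufv3 short form: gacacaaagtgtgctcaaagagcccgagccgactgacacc

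Exon skipping that shifts the reading frame was seen in Ndufa6 and Ndufa7. In Ndufa6 (chr15:82350140-82354322, minus strand), the middle exon of 116 bases was skipped in 24 of 260 reads in replicate 1, or 9.23% (6.28 to 13.4), and in 55 of 347 in replicate 2, or 15.9% (12.4 to 20.1). In Ndufa7 (chr17:33824572-33838317, plus strand), the second exon of 50 bases was skipped in 18 of 292 reads, or 6.16% (3.93 to 9.53), and in 34 of 411, or 8.27% (5.98 to 11.3). The intervals of the libraries overlapped for both genes, narrowly in Ndufa6, but overlap of intervals is no test of a difference. Neither exon is a multiple of 3 in length; the annotated coding region falls from 131 to 72 codons in Ndufa6 and from 113 to 40 in Ndufa7, where the skipped form Ndufa7-202 is typed as a target of nonsense-mediated decay. The skipped exons are in capitals, with 20 bases on each side.
Ndufa6 with the exon: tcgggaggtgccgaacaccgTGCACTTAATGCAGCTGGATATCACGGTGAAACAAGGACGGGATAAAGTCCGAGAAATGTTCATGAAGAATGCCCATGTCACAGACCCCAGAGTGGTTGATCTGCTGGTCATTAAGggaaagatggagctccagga
Ndufa6 without it: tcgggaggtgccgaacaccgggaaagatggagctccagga
Ndufa7 with the exon: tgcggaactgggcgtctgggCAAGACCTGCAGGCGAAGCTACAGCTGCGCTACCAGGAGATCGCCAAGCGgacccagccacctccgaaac
Ndufa7 without it: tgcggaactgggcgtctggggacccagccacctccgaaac

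Retained-intron forms were a small share in both genes. Ndufa6-206 held 28 and 37 reads, or 9.49% and 9.59% of complete reads, and Ndufa7-204 held 38 and 47 reads, or 11.4% and 10.1%. Over all members, 97.9% and 97.8% of known-model reads were in models typed as protein coding, 1.32% and 1.49% in retained introns and 0.573% and 0.567% in targets of nonsense-mediated decay.

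In 2 further genes the alternative splice site lies outside the coding region. Ndufb2 (chr6:39592574-39603382, plus strand) uses donors 4 bases apart at the end of the third exon, after the stop codon; the later one was used in 31.0% (24.0 to 39.0) of 142 reads and 34.1% (27.5 to 41.4) of 176. Ndufs8 has first-exon donors 243 bases apart before the start codon; the later one was used in 16.8% (12.5 to 22.3) of 220 reads and 16.6% (12.4 to 21.8) of 241. Coding regions are the same between the 2 forms in each gene, at 105 and 212 codons.

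**Figure D5:**
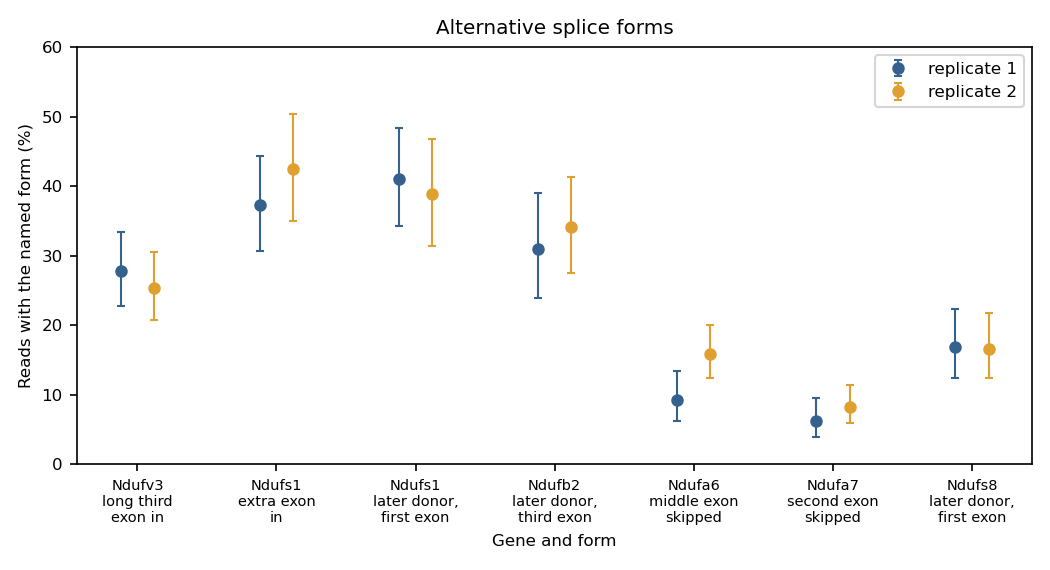
Percent of reads with the named form in 7 splice choices of 6 members, with 95% Wilson intervals, in replicate 1 (blue) and replicate 2 (yellow). The intervals of the libraries overlap in all 7, which is no test of a difference. Shares run from 6.16% for skipping in Ndufa7 to 42.5% for the extra exon of Ndufs1.

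New splice models were numerous and thin. Members had 297 distinct new models, of which 61 from 30 genes appeared in both libraries, with 172 and 180 reads. After the 2 forms of Ndufs1, the most read were a new acceptor site for the last exon of Ndufab1, the mitochondrial acyl carrier protein, with 16 and 6 reads, and a further intron inside the first exon of Ndufb11, with 3 and 9 reads. A later acceptor of the third exon of Ndufa11 had 5 and 6 reads. Each of these 3 contains 1 intron that is not annotated, and each stayed under 10% of the complete reads of its gene.

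Near-identical copies of the coding sequence limit a few members. At 90% identity over 80% of the coding sequence, 13 members had 16 processed pseudogenes, of which 6 had reads, 66 and 79 in all. Nearly all of these fell on BC002163, an intronless copy of Ndufs5 on chromosome 16, with 63 and 75 reads against 84 and 120 for Ndufs5 itself. The copy differs from the 318 coding bases of Ndufs5 at 2 positions, T81C and A105G, counted from 1 at the first base of the start codon with the base of Ndufs5 first. The stretch with both is shown, the differing bases in capitals, so that a reader can see how little separates them.
Ndufs5: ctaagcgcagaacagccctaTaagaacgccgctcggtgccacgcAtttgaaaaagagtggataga
BC002163: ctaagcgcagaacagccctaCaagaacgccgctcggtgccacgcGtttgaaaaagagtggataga

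The level of Ndufs5 is therefore uncertain, since reads may be split between the gene and the copy. No other copy had more than 3 reads in a library. On the opposite strand, no member had spliced reads with its introns; unspliced antisense reads were not examined.

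The promoters were searched for the letters of 3 factors that are known regulators of respiratory genes. RefSeq windows (GRCm38.p6) of 250 bases before to 50 bases after the start were given for 40 of 46 members and 27025 genes in all. On either strand, GCGCA, any base, then GCGC, the letters of NRF1, were present in 9 of 40 members (22.5%), in 5.19% of all genes with a window and in 12.9% of the tested genes with one. CCGGAAG, the letters of the ETS family, were present in 6 of 40 (15.0%), 9.93% and 22.7%. AAGATGGC, the letters of YY1, were present in 8 of 40 (20.0%), 3.19% and 6.21%. These matches are descriptions of the letters, and no test was made of them.

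The NRF1 letters occurred 3 times before the start of Ndufb4 and once before those of Ndufs5 and of the factor Ndufaf4. These stretches are printed from RefSeq in the direction of the gene, the match in capitals with 12 bases on each side, since they show that subunits and an assembly factor share the letters.
Ndufb4, 22 bases before the start: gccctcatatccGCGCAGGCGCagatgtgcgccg
Ndufb4, 79 bases before the start: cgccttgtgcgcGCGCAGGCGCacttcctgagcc
Ndufb4, 191 bases before the start: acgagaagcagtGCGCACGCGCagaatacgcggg
Ndufs5, 98 bases before the start: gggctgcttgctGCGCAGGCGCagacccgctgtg
Ndufaf4, 113 bases before the start: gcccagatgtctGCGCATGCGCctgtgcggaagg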

How the data were processed

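Long-read RNA sequencing libraries of 2 biological replicates were analysed. The deposited tables give raw counts of reads per transcript model. The authors counted filtered alignments to mm10 with GENCODE mouse release 21, per the deposited file descriptions. Model names carry TALON tags, per the file headers. Aligner, software versions and filter settings: not given in the sources used here. Only models with at least 1 read are listed.

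Reads were summed over all models of a gene, and CPM used all mouse reads without spike-ins. Between libraries, Fisher's exact test (two-sided, SciPy 1.17.1) was used, with Benjamini-Hochberg adjustment over all genes with at least 20 reads, and 0.5 CPM added for log2 ratios. Intervals are 95% Wilson intervals; they and the limit of 3 reads cover counting error only, since the reads carry no molecular identifiers. The labels do not settle whether the libraries come from separate animals, so p-values measure only differences between these libraries. Usage of the leading form was compared over genes with at least 50 complete reads in each library. Copies were found with BLAST+ 2.17.0. Alternatives used the scalings of edgeR 4.0.16 and DESeq2 1.42.0, other read minimums and other sets of models. Both tests were run on simulated data with counting error only, which does not cover any further spread between libraries.

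Members and lists were chosen with earlier results of these data known. Named genes were every assembly factor, the 10 highest and 5 lowest members, core subunits, Ndufa4 and Ndufa4l2, the 5 largest ratios in each direction, members whose leading form held under 60%, the 5 most-read new forms and mt-Nd genes. Single values of 1 member are not reported here. Of 13 listed assembly factors without the Nduf name, 1 was not matched.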

Additional observations from a re-analysis of the deposited data

How the results depend on the processing

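With 2 libraries, depth limits the assembly factors most: 4 of the 8 had at most 24 reads in a library. With known models only, the summed level of the subunits moved from 14205 to 11498 CPM, that of the assembly factors from 387 to 270.2 CPM, and the ratio of medians from 9.04 to 10.4; with complete models only, an alternative chosen after seeing the data, the sums were 11891 and 299.8 CPM. Per kb of the longest annotated transcript the ratio was 12.8. Leaving out 1 library at a time, the sums ranged from 12992 to 15419 CPM and from 355 to 419 CPM, the ratio from 8.43 to 9.65, and the share of member reads in known models from 79.7% to 81.7%. The number of members past the adjusted p alone was 9, where 7.93% of all tested genes passed. With that share in parentheses, it was 16 with TMM scaling (7.53%) and 19 with DESeq2 size factors (7.3%). It was 7 with no read minimum (3.24%), 15 without genomic models (8.84%), and 14 with known (8.41%) or complete (7.8%) models only. The number of members called between the libraries was 0 under the other scalings, read minimums and added CPM. Under those settings 1.58% to 3.26% of all tested genes were called. The number became 1 (Ndufaf7) without genomic models, where 3.66% of all tested genes were called. Without the size threshold it became 9, where 7.93% of all tested genes passed. Members whose leading form held under 60% were 1 of 36, but 2 of 41 (Ndufaf1 and Ndufs1) at 20 complete reads and 0 of 36 with known models only. The share of all genes was 12.8% in the main setting and is not given for these alternatives. The median log2 ratio of the members was 0.36 with DESeq2 size factors, under which the median of all genes was 0.01, and 0.13 in the members of at least 1000 bases. The level of 5 members moved by over 1.5 times with complete models only. No paired analysis was possible because there is 1 group.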
